A study of Mus musculus with 12 samples.

Results

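A group of 2656 chromatin regions was examined that the authors' interval lists place in induced pluripotent stem cells (iPSC) and in none of the earlier stages of mouse fibroblast reprogramming. They were chosen from the 115000 regions in which the authors counted reads, by an overlap of at least 1 bp with an interval of the iPSC list and no overlap with any interval of the lists for mouse embryonic fibroblasts (MEF), Stage 1 or Stage 2. They made up 9.47% of the 28032 counted regions that overlapped the iPSC list. The lists are themselves drawn from these libraries, so every contrast of iPSC with another stage is given as a description of size and is not used as evidence. Absence from the other lists was part of the rule too, and the MEF list is the longest, with 86168 intervals against 36719 for Stage 1 and 37485 for Stage 2. Contrasts among MEF, Stage 1 and Stage 2 therefore also use values that chose the regions. Their calls and p-values describe the difference against the spread between libraries. They support nothing about these regions as a set, nor about any single region named below. The measurement was ATAC-seq, in which a transposase cuts and tags accessible DNA. The 4 groups held 3 libraries each. They were unsorted MEF, Stage 1 cells taken at day 6, Stage 2 cells taken at day 6 plus 4 further days, and established iPSC. The last 3 groups had been sorted for the Oct4-GFP reporter, and all cells were of strain Mixed (C57BL/6 x 129). The cells came from what the labels call 3c enhanced reprogramming, a term whose meaning is not given in the sources used here, and the labels do not say whether the iPSC were 1 clone or a pool.

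In reprogramming, forced expression of the factors Oct4, Sox2, Klf4 and Myc turns a somatic cell into a pluripotent one over days. Fibroblast enhancers close and enhancers and promoters used by pluripotent cells open, and many promoters of germ-cell genes and developmental regulators that are silent in fibroblasts lie in CpG-rich DNA that DNA methylation or Polycomb proteins can keep inactive. A region absent from a stage's list is one where no interval was called there, which is different from a region without accessibility, so the question asked here was how much signal these regions already held before iPSC.

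The promoters of 6 genes are printed because the start sites of germ-cell genes, of a neural regulator and of a metabolic gene lay inside or next to these regions and carry their sequence features. Sycp3 encodes a protein of the synaptonemal complex of meiotic chromosomes, Dpy19l2 is needed for the sperm acrosome, Topaz1 is a germ-cell gene of meiosis, H2bc1 encodes the testis histone H2B, Pax6 is a transcription factor of eye and forebrain, and Bcat1 is an aminotransferase of branched-chain amino acids. Each sequence is the 250 bases before the RefSeq start site, 5′ to 3′ on the gene's strand, in build GRCm38.p6 (mm10). The positions are chr10:88459337-88459586 on the plus strand for Sycp3, chr9:24696294-24696543 on the minus strand for Dpy19l2 and chr9:122746949-122747198 on the plus strand for Topaz1. They are chr13:23934157-23934406 on the minus strand for H2bc1, chr2:105668646-105668895 on the plus strand for Pax6 and chr6:145048813-145049062 on the minus strand for Bcat1. All 250 bases lay inside the accessible region for Sycp3, Dpy19l2, H2bc1 and Bcat1, 205 for Pax6 and 198 for Topaz1. The CATTGT marked in Topaz1, at bases 214 to 209 before the start, lay outside the region. Capitals mark matches to searched motifs: the E-box CACGTG in Sycp3, Dpy19l2 and Topaz1, ACAATG or its complement CATTGT in Dpy19l2 and Topaz1, the octamer (ATTTGCAT, the complement of ATGCAAAT) and CCAAT or ATTGG in H2bc1, the cyclic AMP response element TGACGTCA and CCAAT in Pax6, and the composite TTGTNATGC in Bcat1.
Sycp3: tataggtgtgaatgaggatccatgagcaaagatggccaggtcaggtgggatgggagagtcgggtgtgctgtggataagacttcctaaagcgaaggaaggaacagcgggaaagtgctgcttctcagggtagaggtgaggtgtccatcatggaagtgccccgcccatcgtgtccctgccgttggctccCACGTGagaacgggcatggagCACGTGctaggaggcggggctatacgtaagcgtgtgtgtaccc
Dpy19l2: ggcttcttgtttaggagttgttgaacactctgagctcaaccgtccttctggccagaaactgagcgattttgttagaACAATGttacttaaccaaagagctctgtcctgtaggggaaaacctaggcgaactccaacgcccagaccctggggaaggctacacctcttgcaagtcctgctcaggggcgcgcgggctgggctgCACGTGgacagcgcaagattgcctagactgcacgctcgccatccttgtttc
Topaz1: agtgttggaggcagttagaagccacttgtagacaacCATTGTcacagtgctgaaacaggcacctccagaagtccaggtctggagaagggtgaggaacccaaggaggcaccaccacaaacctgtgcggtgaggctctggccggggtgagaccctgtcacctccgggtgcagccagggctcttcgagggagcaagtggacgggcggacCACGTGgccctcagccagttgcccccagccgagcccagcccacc
H2bc1: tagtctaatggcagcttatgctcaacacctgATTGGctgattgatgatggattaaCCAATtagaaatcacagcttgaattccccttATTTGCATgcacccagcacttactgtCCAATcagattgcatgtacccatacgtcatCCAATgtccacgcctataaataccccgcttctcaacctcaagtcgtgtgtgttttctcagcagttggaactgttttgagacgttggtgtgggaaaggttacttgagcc
Pax6: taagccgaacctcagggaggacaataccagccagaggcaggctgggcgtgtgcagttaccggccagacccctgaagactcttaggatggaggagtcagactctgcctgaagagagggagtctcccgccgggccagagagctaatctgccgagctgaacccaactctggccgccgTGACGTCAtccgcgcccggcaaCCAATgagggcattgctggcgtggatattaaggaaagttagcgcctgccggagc
Bcat1: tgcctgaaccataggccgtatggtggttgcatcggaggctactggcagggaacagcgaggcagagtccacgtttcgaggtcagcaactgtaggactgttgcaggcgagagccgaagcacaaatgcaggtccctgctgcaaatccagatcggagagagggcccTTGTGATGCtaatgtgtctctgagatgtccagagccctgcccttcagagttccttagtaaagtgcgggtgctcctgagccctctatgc

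The E-box stood at bases 64 to 59 and again at 43 to 38 before the start of Sycp3, at 51 to 46 before that of Dpy19l2 and at 44 to 39 before that of Topaz1. These 3 were among 7 germ-cell gene promoters in the regions that were looked at, a set chosen after the overlapping genes had been listed. Over all 114 promoter windows with at least 150 bp inside these regions the E-box was no more frequent than elsewhere, at 7.02%, against 7.15% of all 32851 RefSeq promoter windows of 300 bp (250 bases before to 50 after the start). A match is a description of letters and not a bound site.

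The regions were short and faint. Their width ran from 50 to 800 bp with a median of 350 bp, against 550 bp over all counted regions and 650 bp over all regions listed in iPSC, and 156 (5.87%) were at most 100 bp wide. The other single-stage classes were as short, with medians of 350 bp for regions listed only in Stage 2 and 400 bp for those listed only in Stage 1. The iPSC libraries together gave a median of 30 reads per region, with a range of 2 to 266, and 65 regions had fewer than 10 iPSC reads. Median reads over the 3 libraries were 25 in Stage 2, 15 in Stage 1 and 9 in MEF. The nearest interval of another stage was 50 bp away at the least and 5225 bp in the median, and 469 regions (17.7%) had one within 1 kb. At the edge of the rule, the region chr1:33945451-33945500 had 2 MEF, 0 Stage 1, 1 Stage 2 and 3 iPSC reads with an earlier-stage interval 50 bp away. The regions chr1:126492451-126492550 (9, 5, 5 and 6 reads in the same order) and chr1:161962901-161963400 (31, 36, 39 and 40 reads) were as close. Just outside the rule, chr1:34006851-34007400 (29, 17, 57 and 77 reads), chr1:151466551-151466950 (23, 33, 47 and 40 reads) and chr11:21993151-21993600 (33, 31, 65 and 62 reads) shared 50 bp with a Stage 2 interval.

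The libraries held 14310290 to 32229388 reads each. The share of reads that fell in counted regions was 11.3% to 22.1% in MEF and 4.49% to 8.12% in the other 9 libraries. CPM, the count scaled to 1000000 reads in regions with no further factor, therefore starts from a larger denominator in MEF, and each level below is also given as the ratio of the read density in the regions to that of all DNA outside the counted regions in the same library. A ratio of 1 is the density of the outside DNA. The origin of the replicates (animals, cultures or clones) is not labelled, so each p-value sets a difference against a spread between libraries that may be purely technical.

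These regions already stood well above the outside DNA in Stage 1 and Stage 2. Summed over the 2656 regions, read density relative to the outside was 1.80, 1.42 and 1.22 in the MEF libraries, 2.45, 2.74 and 3.07 in Stage 1, 3.26, 2.75 and 2.40 in Stage 2 and 3.56, 3.88 and 3.31 in iPSC. Every Stage 1 and Stage 2 library lay above every MEF library, the Stage 1 and Stage 2 libraries overlapped, and every iPSC library lay above every other library. The means were 1.48 ± 0.295 (SD, n = 3), 2.75 ± 0.307, 2.80 ± 0.435 and 3.58 ± 0.284. For reference, in the 64720 regions listed only in MEF the mean ratio was 1.06 in Stage 1 and 0.944 in Stage 2, close to the outside DNA.

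**Figure D1:**
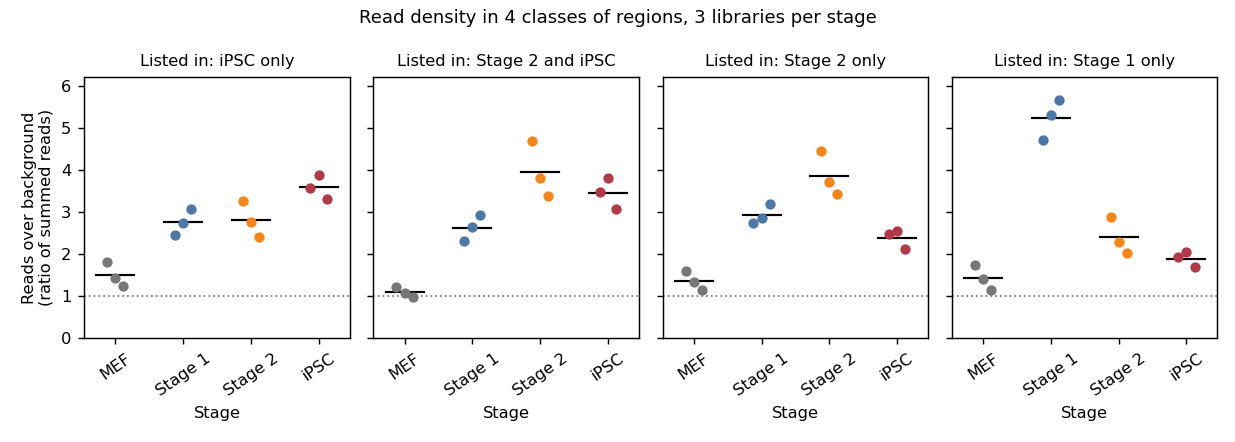
Read density relative to DNA outside the counted regions (y axis, ratio) by stage (x axis), for regions listed only in iPSC and 3 other list classes. Points are libraries, short lines are means of 3 libraries and the dotted line marks 1. The regions listed only in iPSC stand at 2.75 in Stage 1 and 2.80 in Stage 2 on average, between 1.48 in MEF and 3.58 in iPSC.

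Between Stage 1 and Stage 2 the difference depended on the scale. The mean of Stage 2 was the higher on each, by little on the scales other than CPM. In CPM the summed level was 10458, 11548 and 11757 in the Stage 1 libraries and 14884, 14953 and 14483 in the Stage 2 libraries. The ranges did not overlap, Stage 2 was 1.31-fold higher on average, and the exact two-sided permutation test gave p = 0.1, the smallest value that 3 against 3 libraries allow. As the ratio to the outside DNA the stages differed 1.02-fold (exact permutation p = 0.9), and as a share of all reads 1.04-fold (exact permutation p = 0.8). On both of these scales the libraries of the stages overlapped. Absence from the Stage 1 and Stage 2 lists helped to choose the regions, so these p-values are descriptions and support nothing. The share of reads in regions was itself lower in Stage 2, at 5.31% to 6.91%, than in Stage 1, at 7.36% to 8.12%. CPM divides by the reads in regions. The ratio to outside DNA also went with this share within each stage. It was 2.45, 2.74 and 3.07 at shares of 7.36%, 7.44% and 8.12% in Stage 1. In Stage 2 it was 3.26, 2.75 and 2.40 at 6.91%, 5.87% and 5.31%. Which scale is the better measure of the stage difference was not tested.

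Between MEF and Stage 1 the level differed on every scale. Summed CPM was 2153, 2398 and 3240 in MEF, below all Stage 1 libraries, and the Stage 1 mean was 4.33-fold higher. The Stage 1 mean was 1.86-fold higher as the ratio to outside DNA and 2.08-fold higher as a share of all reads. Stage 2 exceeded MEF 5.69-fold in CPM, 1.89-fold as the ratio and 2.15-fold as a share of all reads. No MEF library reached a Stage 1 or Stage 2 library on any of the 3 scales. Absence from the MEF list helped to choose the regions, so no test of these summed levels is given. The iPSC summed CPM of 22533, 23730 and 23844 was higher again, as the choice of the regions would have it.

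The spread over single regions was wide. In MEF 674 regions (25.4%) had a read density of more than 2 times the outside DNA, as did 1784 (67.2%) in Stage 1, 2129 (80.2%) in Stage 2 and 2617 (98.5%) in iPSC, with reads of the 3 libraries summed. The median ratios were 1.03, 2.64, 2.71 and 3.53 in the same order, so in MEF the median region stood at the outside level and below the summed ratio of 1.48. The share above 2 also depends on read numbers, which had medians of 15 in Stage 1 and 25 in Stage 2. In the regions listed in Stage 2 and iPSC the share above 2 was 14.0% in MEF and 69.3% in Stage 1. In those listed only in Stage 2 it was 21.8% in MEF and 74.6% in Stage 1. The Stage 1 share of the regions listed only in iPSC was thus slightly below that of both classes. Their MEF share was above both. A Stage 1 share of this size was therefore not particular to them. A higher ratio in Stage 1 than in MEF was seen in 2240 regions (84.3%), and a higher ratio in Stage 2 than in Stage 1 in 1427 (53.7%). Absence from the MEF, Stage 1 and Stage 2 lists helped to choose the regions. The same counts were not made over all counted regions, so nothing about these regions is read from them. Group mean CPM was highest in iPSC in 2340 regions, in Stage 2 in 191, in Stage 1 in 125 and in MEF in 0, and in 857 regions every iPSC library exceeded all 9 other libraries. These counts use the iPSC values that chose the regions and were not made over all counted regions. Nothing is read from them. The 156 regions of at most 100 bp had higher medians in every stage (2.22, 4.66, 4.70 and 5.34). A read that only touches a narrow region may count as inside it, and how such reads were counted is not given in the sources used here. In the 2500 wider regions the medians were 1.01, 2.59, 2.68 and 3.51.

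**Figure D2:**
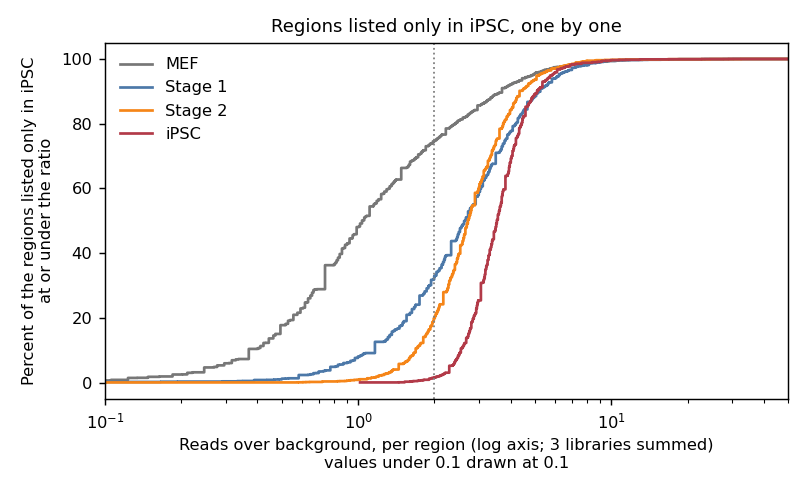
Cumulative percent of the 2656 regions (y axis) by read density relative to outside DNA (x axis, log scale), 1 line per stage with reads of 3 libraries summed. Beyond the dotted line at a ratio of 2 lie 25.4% of the regions on the MEF line, 67.2% on that of Stage 1, 80.2% on that of Stage 2 and 98.5% on that of iPSC.

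Beside the other late classes, the levels were alike in Stage 1 and further apart in Stage 2. The 3091 regions listed in Stage 2 and iPSC had mean ratios of 1.08 (MEF), 2.62 (Stage 1), 3.95 (Stage 2) and 3.44 (iPSC), and the 5451 regions listed only in Stage 2 had 1.35, 2.92, 3.86 and 2.38. In Stage 1 the 3 classes were thus within 2.62 to 2.92 of one another. The log2 of the summed level of the regions listed only in iPSC relative to that of the regions listed in Stage 2 and iPSC was -0.80 in Stage 1 and -1.37 in Stage 2, a difference of -0.57. The other class was chosen by its presence in the Stage 2 list, so this difference is a description and supports nothing.

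Tested region by region with edgeR's quasi-likelihood test, 1652 of the 2656 regions passed the filter on low counts. A faint region passes mainly through the stages where it is high, so counts over those that passed support nothing about all 2656. For Stage 2 against Stage 1, 126 of the 1652 (7.63%) were called higher at an adjusted p under 0.05 and 9 (0.545%) lower, beside 5.14% of all 71069 tested regions called higher and 5.62% lower. The median log2 fold change was 0.38, against 0.01 over all tested regions. Without the filter 122 of the 2656 were called higher and 8 lower, beside 3253 and 3409 of all 114998 regions. With libraries scaled to all their reads the calls were 46 higher and 28 lower and the median 0.07, beside 1100 higher and 4485 lower of all 71069 and a median of -0.29. DESeq2 called 37 higher and 1 lower, beside 1718 and 1558 of all tested regions, and leaving out the Stage 1 replicate 3 library lowered the calls of higher regions to 50. Among the like classes, 1184 of 3007 tested regions listed in Stage 2 and iPSC and 911 of 3700 listed only in Stage 2 were called higher, and these were selected on the Stage 2 list.

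For Stage 1 against MEF, 1287 of the 1652 tested regions were called higher and 2 lower, beside 40.0% and 40.4% of all tested regions. The median log2 fold change was 2.03. Scaled to all reads, 903 were called higher and 18 lower with a median of 1.34, beside 20868 higher and 34871 lower of all tested regions and a median of -0.70. Without the filter 2213 of 2656 were called higher and 1 lower, beside 39669 and 39295 of all 114998. For Stage 2 against MEF, 1517 were called higher and 0 lower in edgeR, beside 40.1% and 42.6% of all tested regions. DESeq2 called 1461 and 0, beside 27071 and 29000 of all tested regions. In edgeR 1530 members had an unadjusted p under 0.05. The median was 2.51, and with all reads as the scale it was 1.52, with 1089 called higher and 20 lower, beside 19455 higher and 39088 lower of all tested regions and a median of -1.08. Both contrasts use the same MEF libraries.

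The contrasts with iPSC, which the choice of regions fixes, are given for size only. Against Stage 2 the median log2 fold change of the tested regions was 0.61, with 102 past the threshold as higher and 0 as lower, beside 0.498% and 1.36% of all tested regions. Against Stage 1 the median was 0.98, with 658 higher and 0 lower, beside 6.74% and 9.60%. Against MEF it was 3.20, with 1626 higher and 0 lower, beside 39.1% and 43.0%. The counts changed with the processing, also over all regions. Against Stage 2, DESeq2 called 0 higher, beside 39 of all 71069 tested regions. Scaling to all reads left 22, beside 27 of all 71069, and dropping the filter 66, beside 215 of all 114998. Nothing is read from these counts.

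**Figure D3:**
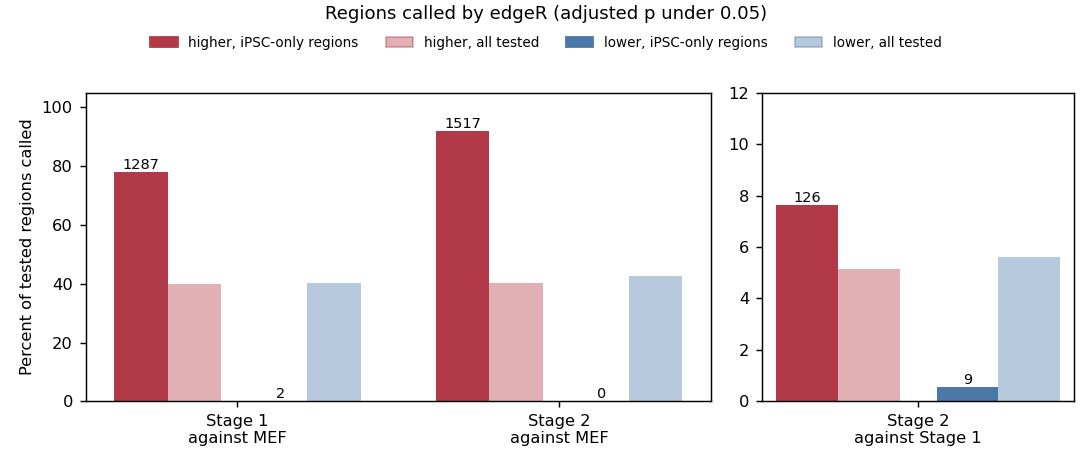
Percent of tested regions called higher or lower (y axis; edgeR adjusted p under 0.05) in 3 contrasts among MEF, Stage 1 and Stage 2 (x axis), for the 1652 tested regions listed only in iPSC and for all 71069 tested regions. The numbers above the bars count called regions listed only in iPSC: 1287 and 2, 1517 and 0, and 126 and 9.

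The regions lay near promoters less often than all regions listed in iPSC, and so did the like classes. Of the 2656, 261 (9.83%, Wilson 95% interval 8.75% to 11.02%) were within 1 kb of a RefSeq start site, against 33.3% of all regions listed in iPSC and 13.4% of all counted regions. The like classes were at 7.67% (Stage 2 and iPSC), 6.77% (only Stage 2) and 5.91% (only Stage 1). A promoter window was overlapped by 128 (4.82%), against 30.1% of regions listed in iPSC and 10.5% of all counted regions. The like classes were at 4.82%, 3.17% and 2.65% in the same order. More than 50 kb from any start site lay 831 (31.3%), against 29.3% of all counted regions and 34.9%, 29.3% and 27.4% of the like classes. A protein-coding gene was overlapped or within 10 kb for 63.1%, against 75.5% of regions listed in iPSC and 66.2% of all counted regions. The intervals cover counting error only.

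**Figure D4:**
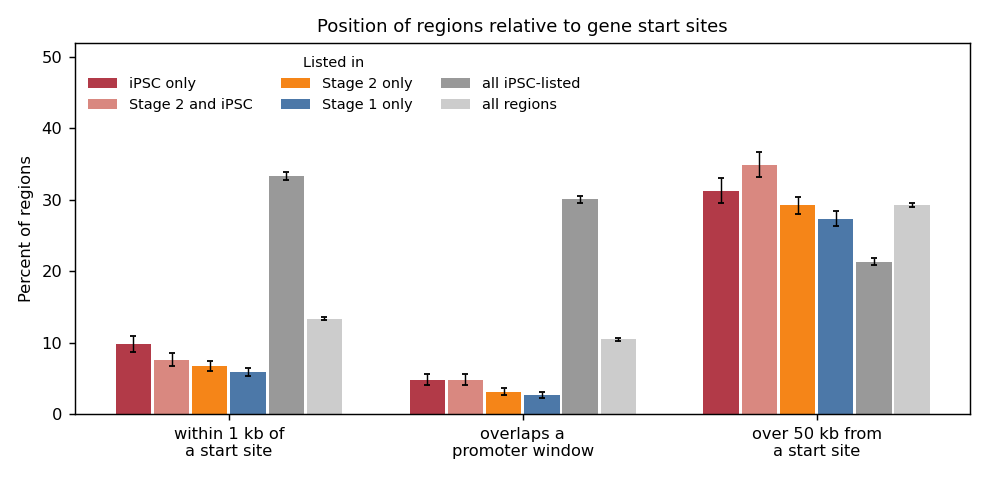
Percent of regions (y axis) within 1 kb of a start site, overlapping a promoter window or more than 50 kb from a start site, in 6 classes of regions (x axis), with Wilson 95% intervals as bars. Regions listed only in iPSC stand at 9.83%, 4.82% and 31.3%, and all regions listed in iPSC at 33.3% and 30.1% for the first 2 measures.

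The X chromosome held 34 of the regions, or 5.14% of the 662 X-linked regions listed in iPSC, against 9.58% of the autosomal ones. Their median ratios to outside DNA were 0.657 (MEF), 2.62 (Stage 1), 2.44 (Stage 2) and 2.92 (iPSC). The sex of the cells is not given in the sources used here. Of the genes linked to the regions, Etl4, Magi1 and Rbms3 held 5 each, of 59, 48 and 72 counted regions linked to them, and Hand2, a transcription factor of heart and limb, held 3 among the 5 counted regions linked to it. Lmx1a, a transcription factor of midbrain dopamine neurons and roof plate, had 3 of 9. Such shares were not particular to developmental transcription factors: Abca14 also had 3 of 5, and Bhmt2 and Frem3 had 2 of 2 each. No share of a single gene was tested.

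Promoters of germ-cell genes were among the regions that overlapped a start site. The Sycp3 region, chr10:88459301-88459850, had CPM of 0.319, 0.743 and 3.41 in MEF, 2.504, 9.39 and 7.84 in Stage 1, 5.19, 6.33 and 12.2 in Stage 2 and 25.5, 15.9 and 18.4 in iPSC. The highest MEF library lay above the lowest Stage 1 library, Stage 1 and Stage 2 overlapped, and all iPSC libraries lay above the rest. The region rose from MEF to Stage 1 by 2.10 ± 0.51 (log2, SE; edgeR adjusted p = 0.000129) and did not pass the test between Stage 1 and Stage 2 (log2 0.18, edgeR adjusted p = 0.855). Relative to outside DNA its density was 1.08 (MEF), 2.65 (Stage 1), 2.36 (Stage 2) and 5.06 (iPSC). Absence from the earlier lists chose each region. The p-values here and for the regions below thus describe size and are not used as evidence.

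The Dpy19l2 region, chr9:24695801-24696550, had CPM of 2.71, 2.41 and 2.05 in MEF, 10.9, 8.45 and 7.84 in Stage 1, 13.8, 11.4 and 7.91 in Stage 2 and 26.3, 30.9 and 19.3 in iPSC. All Stage 1 libraries lay above all MEF libraries and below all iPSC libraries. It rose by 1.44 ± 0.38 from MEF to Stage 1 (edgeR adjusted p = 0.000337), a call that ended with libraries scaled to all reads (0.73, adjusted p = 0.126). The Topaz1 region, too faint to pass the filter, had CPM of 0.319, 0.929 and 0.682 in MEF, 3.34, 3.76 and 3.27 in Stage 1, 4.03, 4.43 and 4.31 in Stage 2 and 15.02, 15.08 and 6.76 in iPSC. No 2 of its stages overlapped. With 9, 13, 20 and 46 reads in MEF, Stage 1, Stage 2 and iPSC it stood at 0.739, 1.68, 1.61 and 3.90 times the outside DNA.

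The H2bc1 region, chr13:23934101-23934500, had most of its signal from Stage 2 on. Its CPM was 0.160, 0.743 and 0.341 in MEF, 1.67, 4.69 and 0.653 in Stage 1, 5.76, 5.07 and 7.19 in Stage 2 and 12.01, 10.3 and 8.70 in iPSC. The Stage 1 libraries spread into the MEF range, and all Stage 2 libraries lay above them. From MEF to Stage 2 it rose by 3.26 ± 0.57 (log2, SE; edgeR adjusted p = 2.11e-07). The difference between Stage 1 and Stage 2 did not pass (log2 1.43, edgeR adjusted p = 0.0958), and the call from MEF to Stage 1 (1.83, edgeR adjusted p = 0.0296) ended without Stage 1 replicate 2 (1.04, adjusted p = 0.361). Taf7l2, a relative of a germ-cell TFIID subunit, had 2 MEF, 12 Stage 1, 36 Stage 2 and 53 iPSC reads at its promoter and rose by 4.93 ± 0.64 from MEF to Stage 2 (edgeR adjusted p = 2.07e-11). The remaining pair of the 7 germ-cell promoters, too faint to be tested, did not share this order. Spaca1, a sperm acrosome gene, stood at 3.33 (MEF), 1.75 (Stage 1), 1.99 (Stage 2) and 4.58 (iPSC) times the outside DNA, and Tekt3, a sperm tail gene, at 1.07, 2.07, 1.204 and 2.12. At Tekt3 an iPSC library of 1.93 CPM lay within the range of the other stages.

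Promoters of 8 developmental transcription regulators were looked at, also chosen after the overlaps had been listed and with no test of their number. The region at the Pax6 start, chr2:105668501-105668850, had CPM of 1.60, 1.49 and 2.73 in MEF, 9.18, 9.39 and 10.4 in Stage 1, 11.5, 10.8 and 12.2 in Stage 2 and 14.3, 14.3 and 10.6 in iPSC. Each Stage 1 library lay above each MEF library and below each Stage 2 library, and iPSC overlapped Stage 2. It rose by 2.00 ± 0.38 (log2, SE) from MEF to Stage 1 (edgeR adjusted p = 1.85e-06), and between Stage 1 and Stage 2 the log2 difference was 0.20 (edgeR adjusted p = 0.781). Its density relative to outside DNA was 2.75, 6.15, 5.57 and 5.23 in MEF, Stage 1, Stage 2 and iPSC, so although listed only in iPSC it was not highest there on that scale. The Lmx1a promoter region stood at 2.22, 4.46, 3.97 and 5.47 and rose by 1.84 ± 0.48 from MEF to Stage 1 (edgeR adjusted p = 0.000312). Others did not follow this order. Tal1, a blood regulator, stood at 4.02, 3.10, 2.65 and 4.07 in the same stages and passed neither test against MEF (edgeR adjusted p = 0.238 and 0.111), and Npas3 stood at 3.16, 2.33, 3.68 and 3.88 (edgeR adjusted p = 0.315 from MEF to Stage 1). Foxi2 stood at 1.08, 3.402, 1.56 and 3.64, Hes6 at 2.96, 2.97, 3.77 and 4.41, Sox6 at 1.33, 3.26, 4.05 and 5.95 and Mcidas at 1.85, 2.33, 4.21 and 4.70.

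The Bcat1 promoter region, chr6:145048701-145049100, was nearly level relative to outside DNA, at 3.97 (MEF), 4.95 (Stage 1), 5.24 (Stage 2) and 4.77 (iPSC). In CPM it had 3.03, 2.79 and 3.07 in MEF against 11.7, 6.57 and 8.49 in Stage 1, with no overlap, and edgeR called a rise of 1.18 ± 0.36 (adjusted p = 0.00226) that ended with libraries scaled to all reads (0.46, adjusted p = 0.323). Over the 128 regions that overlapped a promoter window the median ratio to outside DNA was 2.09 (MEF), 3.32 (Stage 1), 2.86 (Stage 2) and 3.85 (iPSC), against 1.02, 2.62, 2.71 and 3.51 over the other 2528. Of 99 promoter regions tested, 72 (72.7%) were called higher and 1 (1.01%) lower from MEF to Stage 1, and 72 and 0 from MEF to Stage 2, beside 77.9% and 91.8% called higher among all 1652 tested members and 40.0% and 40.1% among all tested regions. From Stage 1 to Stage 2 the calls were 2 (2.02%) higher and 1 (1.01%) lower, beside 7.63% and 0.545% of the tested members and 5.14% and 5.62% of all tested regions.

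**Figure D5:**
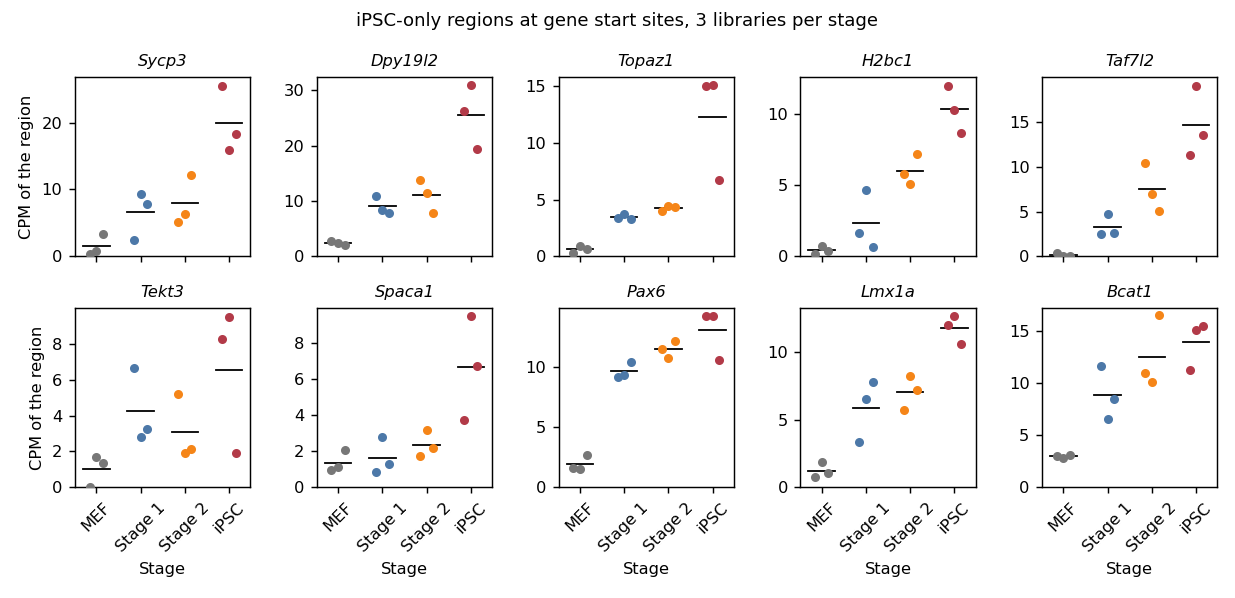
CPM by library (y axis) at 10 promoter regions listed only in iPSC, each panel 1 gene, with the 3 libraries of each stage as points and their mean as a line (x axis). Sycp3, Dpy19l2 and Topaz1 stand highest in all iPSC libraries, while at Pax6 the iPSC libraries (10.6 to 14.3) overlap Stage 2 (10.8 to 12.2).

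In sequence, the 114 promoter windows had a median GC content of 57.3% and 3.33 CpG per 100 bp. All RefSeq windows had 52.7% and 2.33, the windows in any counted region had 61.7% and 7.0, and the like classes had 4.0 (Stage 2 and iPSC), 3.67 (only Stage 2) and 2.0 (only Stage 1) CpG per 100 bp. A lower CpG content than in counted promoters at large was thus shared by these classes. Of 16 motifs searched on both strands, the octamer ATGCAAAT was in 4 windows (3.51%, against 1.74% of all windows). The Oct4-Sox2 composite TTGTNATGC was in 2 (1.75% against 0.731%). In the like classes (Stage 2 and iPSC, only Stage 2, only Stage 1) the octamer was in 0%, 0.763% and 2.29% of windows. The composite was in 0%, 0.763% and 1.53%, so shares near those of the regions listed only in iPSC were also seen in the class of Stage 1. The Sox motif ACAAAG was in 19.3% against 18.7% and the Klf motif GGGNGTGG in 21.9% against 17.6%. In the like classes, in the same order, ACAAAG was in 17.0%, 21.4% and 20.6%, and the Klf motif in 17.0%, 28.2% and 24.4%. The order depended on the reference: in the windows of any counted region Klf was in 23.6%, ACAAAG in 12.99%, ACAATG in 6.95%, the octamer in 1.57% and the E-box in 10.1%. CCAAT, the NF-Y motif, was in 28.1% against 37.4% of all windows, and the AP-1 motif TGANTCA in 4.39% against 7.81%. The like classes had CCAAT in 46.7%, 42.0% and 32.8%, and the AP-1 motif in 5.19%, 6.11% and 6.11%. ACAATG was in 9.65% against 12.6%, and TGACGTCA, the cyclic AMP response element seen at Pax6, was in 1 window (0.877% against 1.79%). No motif was tested, and the composite and the octamer can overlap.

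No region listed only in iPSC was linked, by overlap or within 10 kb, to Pou5f1 (Oct4), Sox2, Klf4, Myc, Nanog, Esrrb, Zfp42, Dppa3, Tet2, Dnmt3l or Meg3. At each of these genes the regions listed in iPSC were already listed at an earlier stage. Over the 42 genes of a pluripotency list, 7 of the 122 linked regions listed in iPSC (5.74%) were listed only there, against 9.47% over all iPSC-listed regions. The genes were Jarid2, Lifr, Lin28b, Sall1, Sall4 and Tet1. The list of primed and epiblast genes had 1 of 32, and chromatin and DNA methylation regulators had 2 of 65.

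At Lifr, which encodes the receptor subunit for leukaemia inhibitory factor that sustains mouse pluripotent cells, the region chr15:7167701-7168300 inside the gene rose between Stage 1 and Stage 2. Its CPM was 0.798, 0.186 and 1.70 in MEF, 1.67, 2.82 and 1.31 in Stage 1, 8.65, 8.87 and 10.8 in Stage 2 and 14.3, 16.7 and 17.4 in iPSC. MEF and Stage 1 overlapped, and Stage 2 and iPSC were each separate from all other stages. The log2 fold change from Stage 1 to Stage 2 was 2.26 ± 0.52 (SE; edgeR adjusted p = 0.00128), and from MEF to Stage 1 it was 0.83 (edgeR adjusted p = 0.280). At Tet1, an enzyme that oxidises 5-methylcytosine, the region chr10:62895501-62895850 had already risen in Stage 1. It had CPM of 0.639, 0.743 and 0.682 in MEF, 5.84, 7.51 and 6.53 in Stage 1, 9.80, 12.03 and 12.2 in Stage 2 and 22.5, 8.73 and 12.6 in iPSC. All Stage 1 libraries lay above MEF and below Stage 2, and iPSC overlapped Stage 2. The rise from MEF to Stage 1 was 2.77 ± 0.52 (edgeR adjusted p = 1.12e-06).

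Among signalling genes, 2 regions are described. At Fgfr2, a fibroblast growth factor receptor, the region chr7:130251951-130252600 had 9 MEF, 15 Stage 1, 41 Stage 2 and 83 iPSC reads and rose by 3.26 ± 0.48 from MEF to Stage 2 (edgeR adjusted p = 2.18e-09). At Axin2, a feedback inhibitor and target of Wnt signalling, the region chr11:108909601-108910050 was highest in Stage 1 relative to outside DNA, at 1.40 (MEF), 8.15 (Stage 1), 3.05 (Stage 2) and 4.32 (iPSC). Its CPM was 1.44, 0.743 and 1.36 in MEF, 14.2, 13.1 and 20.9 in Stage 1, 8.07, 6.33 and 10.1 in Stage 2 and 15.02, 17.5 and 8.70 in iPSC. Every Stage 1 library lay above every Stage 2 library, and iPSC spanned both. The fall from Stage 1 to Stage 2 was -1.06 ± 0.33 (log2, SE; edgeR adjusted p = 0.0208), and the call ended in DESeq2 (adjusted p = 0.122), without Stage 1 replicate 3 (0.246) and without Stage 2 replicate 1 (0.0621) or 2 (0.123). The Fgf and Erk list had 3 of 53 iPSC-listed regions among those listed only in iPSC, the Wnt list 4 of 45, and the TGF-beta, BMP and Nodal list 1 of 48.

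For the other gene lists, the shares stand beside the 9.47% of all iPSC-listed regions and rest on small counts. Primitive endoderm genes had 6 of 27 iPSC-listed regions listed only in iPSC (22.2%), mesoderm and definitive endoderm genes 7 of 32 (21.9%, with 3 at Hand2, 2 at Isl1 and 1 each at Eomes and Foxa1), trophectoderm genes 4 of 26 (15.4%) and neural genes 6 of 40. Mesenchymal and fibroblast genes had 7 of 55 (12.7%), imprinted genes 4 of 35 (11.4%) and germline and 2-cell genes 3 of 28 (10.7%, at Stra8, Sycp1 and Sycp3). Epithelial genes had 5 of 61, and somatic factors with AP-1 had 4 of 66. Markers of other cell types gave 0 of 9 for blood, 2 of 18 for endothelium and 0 of 11 for muscle and neural crest. Some genes stand in more than 1 list, among them Eomes, Fgfr2, Krt7 and Pdgfra. These shares were not tested, and the lists were chosen with earlier results of these data known.

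Not every member was faint outside iPSC. At Jun, a subunit of AP-1 that is active in fibroblasts, the region chr4:95050451-95050900 stood at 7.72 times the outside DNA in MEF and at 5.95, 5.62 and 4.24 in Stage 1, Stage 2 and iPSC, with no test on that scale. In the edgeR fit, which used TMM scaling, it was called higher in Stage 2 than in MEF (0.75 ± 0.26, edgeR adjusted p = 0.00725). With libraries scaled to all reads the direction turned (-0.26, edgeR adjusted p = 0.511). There were 3 members in Sfi1, a centrosome gene, that were dense in reads at every stage. Copy number and unique mapping of reads there were not tested, so these densities are not read as accessibility. The region chr11:3191401-3191750 stood at 22.8, 27.6, 32.4 and 29.0 times the outside DNA in MEF, Stage 1, Stage 2 and iPSC, chr11:3187351-3187650 at 18.2, 23.3, 24.4 and 22.6, and the 50 bp region chr11:3155251-3155300 at 62.1, 71.0, 54.9 and 66.4.

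Among the 10 members with the highest iPSC CPM, which included the Sfi1 regions and the Dpy19l2 promoter, others were distal. In Rbms3, an RNA-binding protein gene, chr9:116639751-116640400 had CPM of 1.92, 1.49 and 1.70 in MEF, 5.84, 4.69 and 13.7 in Stage 1, 12.7, 13.9 and 10.8 in Stage 2 and 36.0, 25.4 and 23.2 in iPSC. The Stage 1 and Stage 2 libraries overlapped, and MEF and iPSC stood apart at either end. It rose by 1.89 ± 0.41 from MEF to Stage 1 (edgeR adjusted p = 1.99e-05). In Prkcb, a protein kinase C gene, chr7:122477801-122478550 stood at 0.838, 1.47, 2.26 and 4.68 times the outside DNA in the same order of stages. Near Ly75, an endocytic receptor gene, chr2:60384601-60385050 stood at 0.821, 3.36, 4.98 and 7.20.

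The largest called rises from Stage 1 to Stage 2 were at regions nearly without Stage 1 reads. The region chr8:15623901-15624200 had 2 MEF, 1 Stage 1, 37 Stage 2 and 31 iPSC reads and rose by 4.56 ± 0.85 (log2, SE; edgeR adjusted p = 5.56e-05), and chr13:97482501-97482850 in Lncenc1, a non-coding RNA gene named for its expression in embryonic stem cells, had 9, 1, 34 and 31 reads and rose by 4.44 ± 0.84 (edgeR adjusted p = 8.09e-05). The region chr2:126302501-126302700 had 3, 0, 22 and 25 reads, and its Stage 1 libraries were all at 0. Stage 2 and iPSC had similar read numbers at all 3. The largest called falls were at chr12:102328051-102328450 in Rin3, an activator of Rab5, with 23, 62, 22 and 39 reads (-1.82 ± 0.37, edgeR adjusted p = 0.000208), and at chr12:106212401-106212700, with 6, 27, 10 and 24 reads (-1.75 ± 0.54, edgeR adjusted p = 0.0208). DESeq2 did not call the last of these (adjusted p = 0.0929), nor did edgeR without Stage 1 replicate 2 (adjusted p = 0.107) or Stage 2 replicate 3 (0.0634). In both, the signal was high in Stage 1, low in Stage 2 and intermediate in iPSC.

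From MEF to Stage 1, the regions chr6:146631651-146632100 in Tm7sf3 (2, 42, 39 and 41 reads in MEF, Stage 1, Stage 2 and iPSC) and chr17:51836951-51837250 near Satb1, a chromatin organiser (2, 41, 34 and 35 reads), rose by 5.49 ± 0.60 and 5.46 ± 0.62 (log2, SE; edgeR adjusted p = 2.58e-14 and 2.11e-13). Their read numbers in Stage 1 and Stage 2 were similar to those of iPSC, although the Stage 1 libraries held fewer reads. The region chr16:76224901-76225500 in Gm30507 moved the other way first. Its CPM was 3.51, 2.41 and 3.41 in MEF, 0.835, 0.939 and 0.653 in Stage 1, 5.19, 6.97 and 3.595 in Stage 2 and 15.8, 19.05 and 16.4 in iPSC, with no overlap between any stages. It fell from MEF to Stage 1 by 2.29 ± 0.67 (edgeR adjusted p = 0.00142) and rose from Stage 1 to Stage 2 by 2.61 ± 0.70 (edgeR adjusted p = 0.00702; DESeq2 adjusted p = 0.0594, and 0.0623 without Stage 1 replicate 3 and 0.0524 without Stage 2 replicate 2). The other region called lower in Stage 1 than in MEF, at Vstm5, had 79, 15, 27 and 28 reads, and its call (-0.86 ± 0.40, edgeR adjusted p = 0.0456) ended in DESeq2 (adjusted p = 0.0855), without the filter (0.477) and without any 1 of MEF replicates 1 and 3 or the Stage 1 libraries (0.0579 to 0.333).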

How the data were processed

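ATAC-seq was measured in 12 libraries, 3 in each of 4 groups taken from the labels. The authors deposited a read count per region for each library, with reads outside regions, and interval lists per stage. The tools named in the submitters' processing notes are HTSeq 0.5.4p3, whose layout the counts have, SAMtools 0.1.19, Picard 2.6.0, DESeq2 1.12.4 and Bowtie2 2.2.6, with mm10 as the genome. The peak caller, duplicate handling and counting mode are not given in the sources used here, and a wider counting mode would raise narrow regions most.

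Counts were tested in 1 model of all 12 libraries with edgeR 4.0.16 (R 4.3.3, limma 3.58.1; quasi-likelihood, robust, TMM scaling, filterByExpr with a minimum count of 10 and total of 15, two-sided, Benjamini-Hochberg over all 71069 regions tested, threshold 0.05) and checked on simulated data. Overlaps used bedtools 2.31.1, and summed levels used exact permutation tests in SciPy 1.17.1. Outside density is the reads in no region over 2721778719 bp, from the last gene ends of each chromosome, less 67212950 bp covered by regions. Sequences and gene positions are RefSeq's, GRCm38.p6.

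Named regions were the 10 with the highest iPSC CPM, the 2 highest per gene list, the 3 largest called changes per contrast and direction, and the 3 on each side of the membership rule. The members, lists and rules were chosen with earlier results of these data known. The promoter genes were chosen after the overlaps were listed. Other scalings, filters, tools, memberships and left-out libraries were tried.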

Additional observations from a re-analysis of the deposited data

How the results depend on the processing

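Calls of higher regions from Stage 1 to Stage 2 depended most on the processing: against 126, there were 46 with libraries scaled to all reads, 37 in DESeq2, 63 with only the 2 groups fitted and 50 to 97 with a library left out. Lower calls, 9, became 28, 1 in DESeq2 and 1 to 12. With 2 groups 559 of the members were tested, beside 4806 higher and 4247 lower of all 44779 tested. With a library left out 1862 to 2113 members were tested. Beside these, 1890 to 2549 higher and 2147 to 3270 lower were called of all 75318 to 81419 tested. The median of 0.38 became 0.074 and, with 2 groups, 0.22. From MEF to Stage 1, higher calls became 2213 without the filter and 469 with 2 groups (487 regions tested); lower calls became 18 with all reads, 1 without the filter, in DESeq2 and with the block, 0 with 2 groups or 1 kb spacing and 1 to 4 with a library left out, and the median became 1.34, 2.44 and 2.5003 (all reads, no filter, 2 groups). From MEF to Stage 2, higher calls became 2483 without the filter, lower calls 20 with all reads, and the median 1.52, 2.93 and 3.09. Beside the 2483 stood 39333 higher of all 114998 regions. From MEF to Stage 1 with 2 groups, 28586 higher and 32494 lower were called of all 76734 tested. The iPSC medians became 0.37 (all reads) and 0.56 (no filter) against Stage 2, 0.43 (all reads) against Stage 1, and 1.96 and 3.55 against MEF.

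Summed levels (log2) were 0.39, 2.12 and 2.51 for Stage 2 over Stage 1, Stage 1 over MEF and Stage 2 over MEF. They became 0.050, 1.06 and 1.11 as a share of all reads and 0.025, 0.89 and 0.92 as the ratio to outside DNA, an alternative chosen after seeing the data; with the outside density taken off the last pair became 3.25 and 3.65, and the relative level -0.83. With 1 kb spacing from other intervals the shares were 60.7% near a gene, 7.73% within 1 kb of a start site, 33.6% beyond 50 kb and 4.66% narrow. A protein-coding gene itself was overlapped by 50.9% with this spacing and by 52.9% of all 2656 regions. The Jun region reversed (-0.26, all reads). With the replicate block the calls were 109 and 8 (Stage 2 against Stage 1), 1266 and 1 (Stage 1 against MEF) and 1507 and 0 (Stage 2 against MEF). Of all 71069 tested regions the block gave 3338 and 3908, 28330 and 28609, and 28382 and 30273 in the same order. Replicate numbers did not pair libraries: same-number correlations ran from -0.0532 to 0.0625, and 0 of 12 libraries correlated best with their own number. The cause of these changes was not tested. Read numbers were low, and 1652 of 2656 regions passed the filter.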
